A study of Bos taurus with 8 samples.

Results

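The transcripts described here are those of the Hippo pathway in bovine blastocysts, namely the DNA-binding factors TEAD1, TEAD3 and TEAD4, the co-activators YAP1 and WWTR1, the kinases LATS1 and LATS2, the scaffold AMOT and the target genes CYR61 and CTGF. Members were all probes whose platform gene symbol equalled 1 of these 10 symbols. Of the 10 symbols, 9 had a probe, with 15 probes in all among 43794 on the array, and YAP1 had no probe under that symbol. The array symbols CYR61 and CTGF stand for the genes now called CCN1 and CCN2 in RefSeq.

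The blastocysts had developed in vitro from slaughterhouse oocytes matured with bovine insulin at 0.1 µg/ml (INS0.1), with bovine insulin at 10 µg/ml (INS10) or with no insulin added (control). Per the labels, the insulin was added to the maturation medium of the oocytes, and the RNA is that of the later blastocysts. On each of 8 two-colour arrays, RNA of blastocysts from an insulin group was hybridised together with RNA of control blastocysts, and each dose had 4 arrays. Insulin RNA was in Cy5 on replicates 1 and 2 and in Cy3 on replicates 3 and 4 of each dose. The labels call the replicates biological, and the number of embryos in each, their stage and sex, and whether arrays of the same number shared control RNA were not given in the sources used here.

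The Hippo pathway joins cell contact and polarity to transcription. When it is active, the LATS kinases phosphorylate YAP1 and WWTR1 (also called TAZ) and hold them in the cytoplasm; when it is inactive, both enter the nucleus and act through TEAD factors on targets such as CYR61 and CTGF. In the mouse embryo, angiomotin and NF2 activate LATS in inner cells, while TEAD4 with YAP1 in polarised outer cells turns on the trophectoderm genes Cdx2 and Gata3 and holds down Sox2. These steps act largely on proteins and their location, which an array does not measure. In RNA of whole embryos, fewer cells of a type and less RNA per cell cannot be told apart.

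Probes counted as detected where they were brighter than the negative control spots by 2 SD above their mean. A probe detected in 4 or more of 16 readings, which are 8 arrays with both channels, was tested, and 29384 probes passed. Of the member probes 12 of 15 passed, so that each of the 9 genes with a probe was measured. The probes left out were 1 of TEAD1 and 1 of LATS1, detected in 0 of 16 readings, and 1 of LATS2, detected in 2. Another LATS1 probe was the member just inside the filter, with 4 of 16 readings. Median probe intensities were 163 to 255 in Cy5 and 234 to 348 in Cy3. INS0.1 replicate 1 stood apart: 274 probes higher in a fit of the INS10 arrays alone had a median log2 ratio of 0.055 there and of 0.80 to 0.97 on the other INS0.1 arrays. Calls of member probes that change without it are given both ways. Among lineage markers, 11 of 12 trophectoderm genes and 6 of 6 inner cell mass genes with a probe were detected, against 3 of 8 oocyte genes and 5 of 8 cumulus and granulosa genes. Values below are log2 ratios of insulin over control RNA unless called levels, and adjusted p-values are limma's over all tested probes, with a threshold of 0.05.

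Over both doses TEAD4 RNA was higher and CYR61 RNA was lower in blastocysts from insulin-treated oocytes, by 1.61-fold and 1.5-fold. These were 2 of 12 member probes that passed the test, where 1.65% of all probes did. Of all probes 1.48% passed as higher and 0.167% as lower, against 1 of 12 members in each direction. They were also the 2 of 12 with the same sign on 8 of 8 arrays, where 1.95% of all probes had it. AMOT and 1 probe each of TEAD3 and LATS2 had an unadjusted p under 0.05 without passing, so that 5 of 12 reached that level against 10.3% of all probes. The members and the lists below were chosen with earlier results of these data known, so the shares given beside them are no test of an excess. WWTR1, LATS1, CTGF and TEAD1 did not pass. The median over the 9 genes, each by its brightest probe, was −0.18, and the median of all tested probes was −0.0017.

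**Figure D1:**
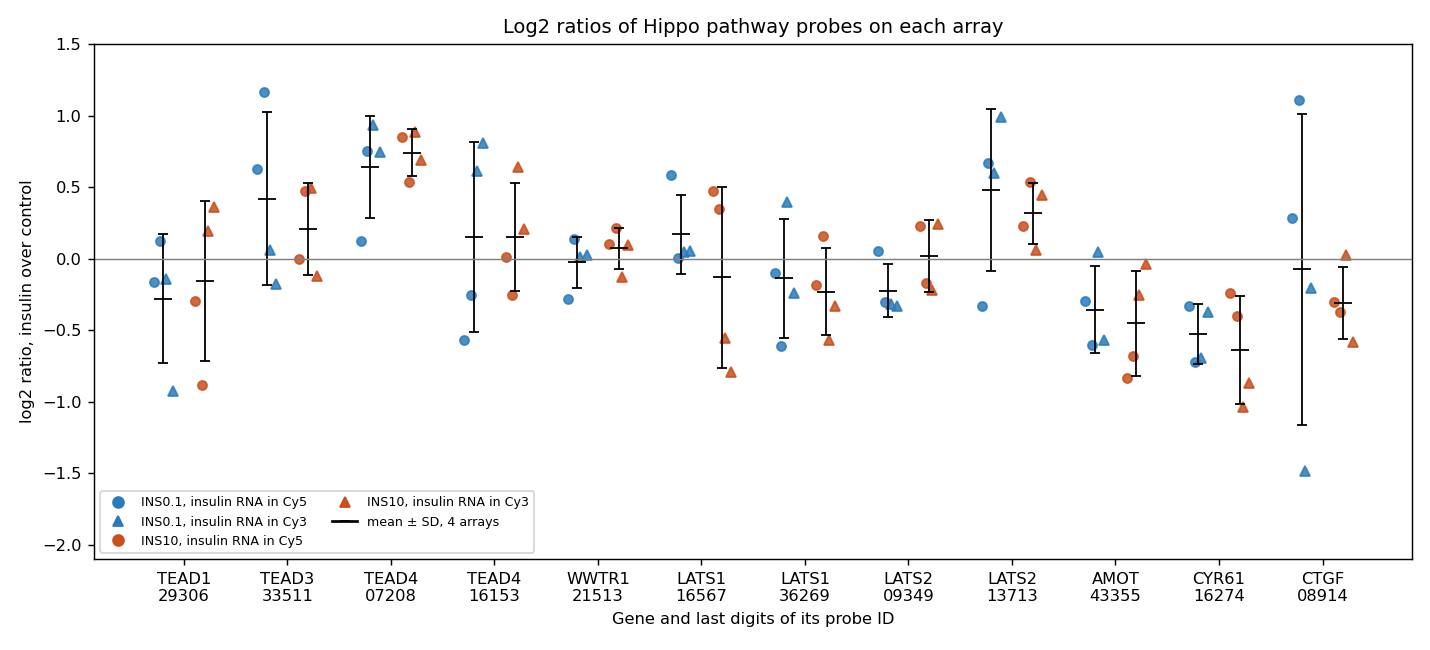
Log2 ratio of insulin over control RNA (y axis) on each of the 8 arrays for the 12 tested member probes (x axis, gene and the last digits of its probe ID), with INS0.1 in blue, INS10 in orange, circles for insulin RNA in Cy5 and triangles for insulin RNA in Cy3. Bars are the mean ± SD of 4 arrays. All 8 ratios of TEAD4 probe EMBV3_07208 lie above 0 and all 8 of CYR61 lie below 0, while CTGF runs from −1.48 to 1.11.

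Among the TEAD factors, which bind DNA and recruit YAP1 or WWTR1, TEAD4 was measured by a pair of probes. At INS0.1 the ratios of the brighter one (EMBV3_07208) were 0.12, 0.75, 0.93 and 0.75 on replicates 1 to 4. At INS10 they were 0.85, 0.54, 0.89 and 0.69. Every normalised ratio was above 0, and that of INS0.1 replicate 1 was the lowest of them. The mean over both doses was 0.69 (SE 0.11, limma adjusted p = 0.00122, higher on 8 of 8 arrays). It stayed past the threshold in each of the 17 alternative analyses that held the probe, with adjusted p from 0.000383 to 0.00926.

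The other TEAD4 probe (EMBV3_16153) did not pass, although its ratios correlated with those of the brighter probe over the 8 arrays (Pearson r = 0.73). Its ratios were −0.57, −0.25, 0.61 and 0.81 at INS0.1 and 0.014, −0.25, 0.64 and 0.21 at INS10. They were below 0 on 3 of the 4 arrays with insulin RNA in Cy5 and above 0 on the 4 with it in Cy3, and the dye effect of this probe passed limma's test (log2 −0.42 for Cy5 over Cy3, adjusted p = 0.0334). It was dim, detected in 7 of 16 readings against 15 of 16 for the brighter probe, and its mean was 0.15 (SE 0.11, limma adjusted p = 0.714). Within arrays the brighter probe exceeded it by 0.54 on average (SD 0.36, higher on 7 of 8 arrays, two-sided exact sign-flip permutation p = 0.0156, 0.039 adjusted over 5 such differences). This sign-flip test takes the 8 arrays as independent, although ratios of same-numbered arrays correlated. The 5 differences, here and below, were picked after the values were seen, and adjusting over 5 does not correct for that choice. Averaged over each of the 4 replicate numbers the difference was above 0 for all 4, with an exact p of 0.125, the smallest that 4 numbers allow. The call for TEAD4 therefore rests on 1 of its 2 probes.

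TEAD3, a family member known from placenta in human, had ratios of 0.63, 1.17, 0.064 and −0.18 at INS0.1 and of −0.0055, 0.48, 0.49 and −0.12 at INS10. Its mean of 0.32 (SE 0.12, limma adjusted p = 0.324) came with values of both signs at each dose. TEAD1, a broadly expressed factor, lay between −0.93 and 0.12 at INS0.1 and between −0.88 and 0.36 at INS10, with a mean of −0.22 (SE 0.14, limma adjusted p = 0.656). The TEAD4 ratio exceeded that of TEAD1 on 8 of 8 arrays, by 0.91 on average (SD 0.50, exact sign-flip permutation p = 0.00781, the smallest that 8 arrays allow, 0.039 adjusted over 5). Over the 4 replicate numbers it was likewise above 0 for 4 of 4, with an exact p of 0.125, so that neither of these differences passes on that count. It exceeded that of TEAD3 on 6 of 8 arrays, by 0.37 (SD 0.59, exact permutation p = 0.133, 0.166 adjusted), a difference within the spread.

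WWTR1, the co-activator on the array, varied least among the members. Its ratios ran from −0.28 to 0.21, with a mean of 0.022 (SE 0.11, limma adjusted p = 0.972) and a 95% interval of −0.20 to 0.24. Its SD over the 8 arrays was 0.16, at the 2.17th percentile of all tested probes, whose median SD was 0.34. All 16 readings were above the detection level.

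The kinase genes did not pass. The brighter LATS1 probe (EMBV3_36269) had ratios of −0.097, −0.61, 0.40 and −0.24 at INS0.1 and of −0.18, 0.16, −0.57 and −0.33 at INS10, with a mean of −0.18 (SE 0.12, limma adjusted p = 0.676). The dimmer one lay between −0.79 and 0.59, with a mean of 0.0198 (SE 0.12, adjusted p = 0.979).

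The LATS2 probes gave different pictures, though both were detected in all 16 readings. The ratios of EMBV3_09349 were 0.054, −0.30, −0.31 and −0.33 at INS0.1 and 0.23, −0.17, −0.22 and 0.24 at INS10, with a mean of −0.102 (SE 0.11, limma adjusted p = 0.818). Those of EMBV3_13713 were −0.33, 0.67, 0.60 and 0.99 at INS0.1 and 0.23, 0.53, 0.062 and 0.45 at INS10, with a mean of 0.40 (SE 0.13, adjusted p = 0.152). On INS0.1 replicates 2, 3 and 4 the probes had opposite signs. The first lay below the other by 0.50 on average (log2 −0.50, SD 0.57, lower on 6 of 8 arrays, exact sign-flip permutation p = 0.0625, 0.104 adjusted over 5). Without INS0.1 replicate 1 this difference was −0.63 (exact permutation p = 0.0312, not adjusted), and EMBV3_13713 itself passed limma's test, at 0.54 (adjusted p = 0.015). No direction can be given for LATS2 as a gene.

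AMOT encodes angiomotin, a junction protein that binds YAP1 and, in mouse inner cells, helps to activate LATS. Its ratios were −0.29, −0.61, 0.047 and −0.57 at INS0.1 and −0.83, −0.68, −0.26 and −0.040 at INS10. They were below 0 on 7 of 8 arrays. The mean was −0.40 (SE 0.11), and it missed limma's threshold at an adjusted p of 0.0763. Among probes detected in every reading, a smaller set of tests, the adjusted p was 0.0474. AMOT passed in that 1 of 18 alternatives alone, and its adjusted p reached 0.272 in the others. The mean was −0.603 on the arrays with insulin RNA in Cy5 and −0.20 on those with it in Cy3, while the dye effect of this probe did not pass (adjusted p = 0.315).

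**Figure D2:**
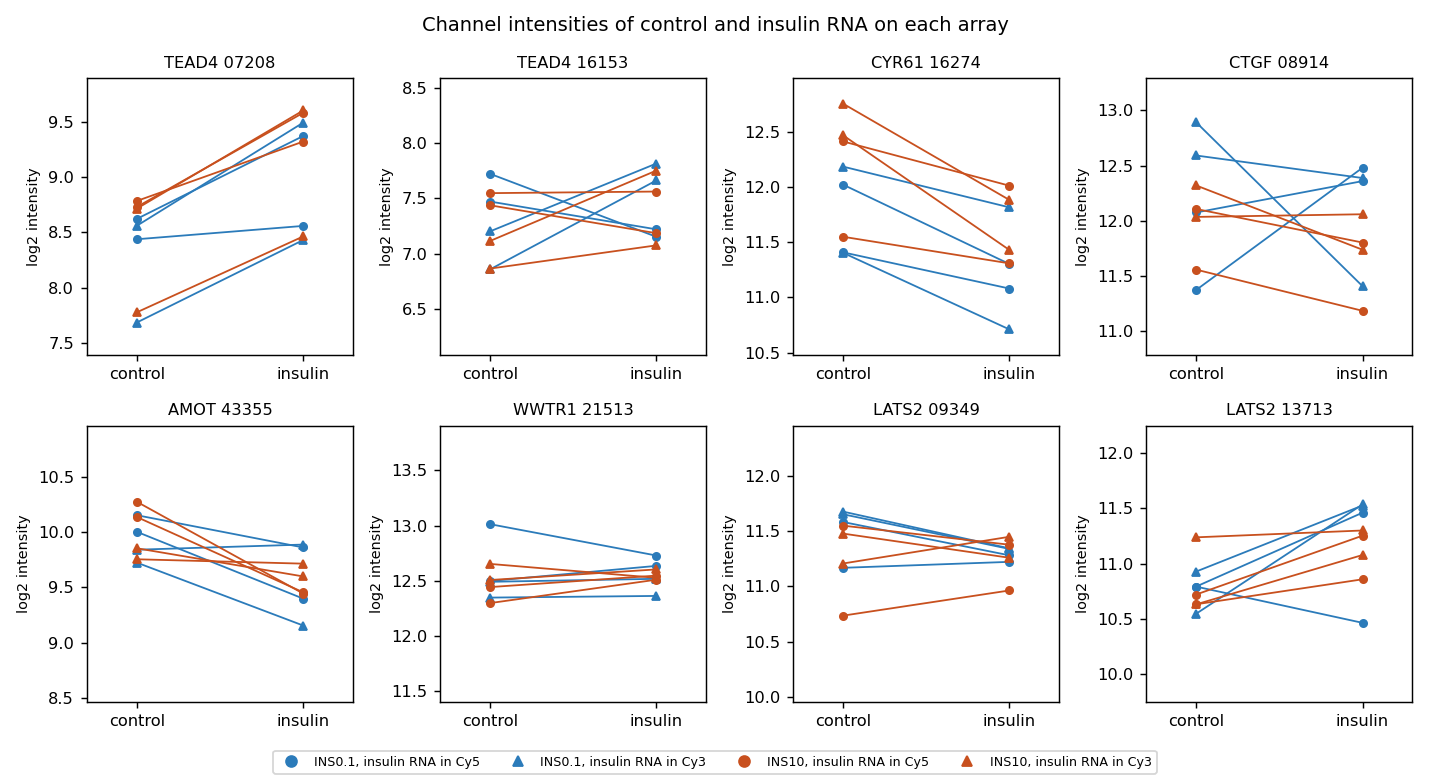
Normalised log2 intensity (y axis) of control and insulin RNA (x axis), joined by a line for each of the 8 arrays, for 8 member probes; colours and symbols mark dose and insulin dye, and all panels span the same range of log2 units. The rise or fall of a line is the log2 ratio of that array. All lines of TEAD4 probe EMBV3_07208 rise and all lines of CYR61 fall, while those of CTGF cross.

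CYR61 and CTGF encode secreted matricellular proteins of the CCN family and are widely used as readouts of YAP1 and TEAD activity. CYR61 ratios were −0.33, −0.72, −0.69 and −0.37 at INS0.1 and −0.24, −0.40, −1.04 and −0.87 at INS10. Insulin RNA gave the lower signal on every array. The mean was −0.58 (SE 0.11, limma adjusted p = 0.00539, lower on 8 of 8 arrays), and it remained past the threshold in each of 18 alternative analyses, with adjusted p from 0.00291 to 0.0356.

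CTGF ratios were 0.28, 1.11, −1.48 and −0.204 at INS0.1 and −0.305, −0.37, 0.023 and −0.58 at INS10. The low-dose arrays reached both extremes, with an SD of 1.08 there against 0.25 at INS10. Its SD over all 8 arrays, 0.74, was at the 98.6th percentile of tested probes. The mean was −0.19 (SE 0.16, limma adjusted p = 0.754), with a 95% interval of −0.53 to 0.14 that holds both no change and decreases nearly as large as that of CYR61. Without INS0.1 replicate 3 the mean was 0.016, so that its sign rests on that array. CYR61 lay below CTGF on 6 of 8 arrays, by 0.39 on average (SD 0.79), which was within the spread (exact sign-flip permutation p = 0.203, also 0.203 adjusted over 5). Without INS0.1 replicate 3, the array with the lowest CTGF ratio, the difference was 0.56 in size with CYR61 lower (log2 −0.56, exact permutation p = 0.0469, not adjusted). The data thus do not show that the targets responded differently, nor that they acted alike.

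The channel levels are on a log2 intensity scale that allows no comparison between probes. Within an array they differ by the log2 ratio itself, so that they add only the spread between arrays. TEAD4 (EMBV3_07208) had a level of 8.41 ± 0.44 (SD, n = 8) in control RNA and of 9.10 ± 0.52 in insulin RNA. Control levels of 7.68 and 7.78 on replicate 4 of INS0.1 and INS10 were the lowest, and the insulin levels on the same arrays, 8.43 and 8.46, were the lowest of that channel. Levels in control and insulin RNA therefore overlapped between arrays, while the difference within each array is the ratio given above. CYR61 had 12.02 ± 0.52 in control and 11.44 ± 0.44 in insulin RNA, with control levels from 11.403 to 12.75 and insulin levels from 10.71 to 12.01 that overlap. For CTGF the control level ran from 11.37 to 12.89 and the insulin level from 11.19 to 12.48. WWTR1 had 12.53 ± 0.22 in control and 12.55 ± 0.11 in insulin RNA.

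Each dose was also set against the control, within the fit of all 8 arrays and so with a shared dye effect and a shared estimate of spread. At INS0.1 limma's test called 0 of 12 member probes, where 0.109% of all probes passed (0.105% higher and 0.0034% lower), and 5 members had an unadjusted p under 0.05, against 7.68% of all probes. TEAD4 stood at 0.64 (SE 0.16, limma adjusted p = 0.119) and at 0.795 without INS0.1 replicate 1, with an adjusted p of 0.0345. CYR61 stood at −0.53 (SE 0.16, adjusted p = 0.227). At INS10 1 of 12 passed, where 0.436% of all probes did (0.419% higher and 0.017% lower), and 3 had an unadjusted p under 0.05, against 6.77% of all. That was TEAD4 at 0.74 (SE 0.16, limma adjusted p = 0.0371), 1.67-fold higher on 4 of 4 arrays. Its call was lost when INS10 replicate 1 (0.456), 2 (0.193), 3 (0.227) or 4 (0.0588) was left out, each value an adjusted p. CYR61 at INS10 was −0.64 (SE 0.16, adjusted p = 0.0836). It passed in 3 of 19 alternatives, among them the fit with replicate number as a block and a separate dye effect per dose (0.0435). In the others its adjusted p reached 0.516. AMOT was −0.36 at INS0.1 (adjusted p = 0.598) and −0.45 at INS10 (0.402).

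The difference between the doses was tested directly. No array held both doses, so a dose difference cannot be told apart from one between the sets of arrays. In Cy5, 44.1% to 48.7% of probes were detected on INS0.1 arrays and 53.7% to 58.8% on INS10 arrays. For INS10 against INS0.1 limma called 0 of 12 member probes and 0% of all tested probes, with 0 member probes and 845 probes in all (2.88%) at an unadjusted p under 0.05. The difference was 0.104 for TEAD4 (95% interval −0.35 to 0.56) and −0.11 for CYR61 (−0.57 to 0.35). Those intervals are wide enough to hold dose differences nearly as large as the insulin effects themselves.

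**Figure D3:**
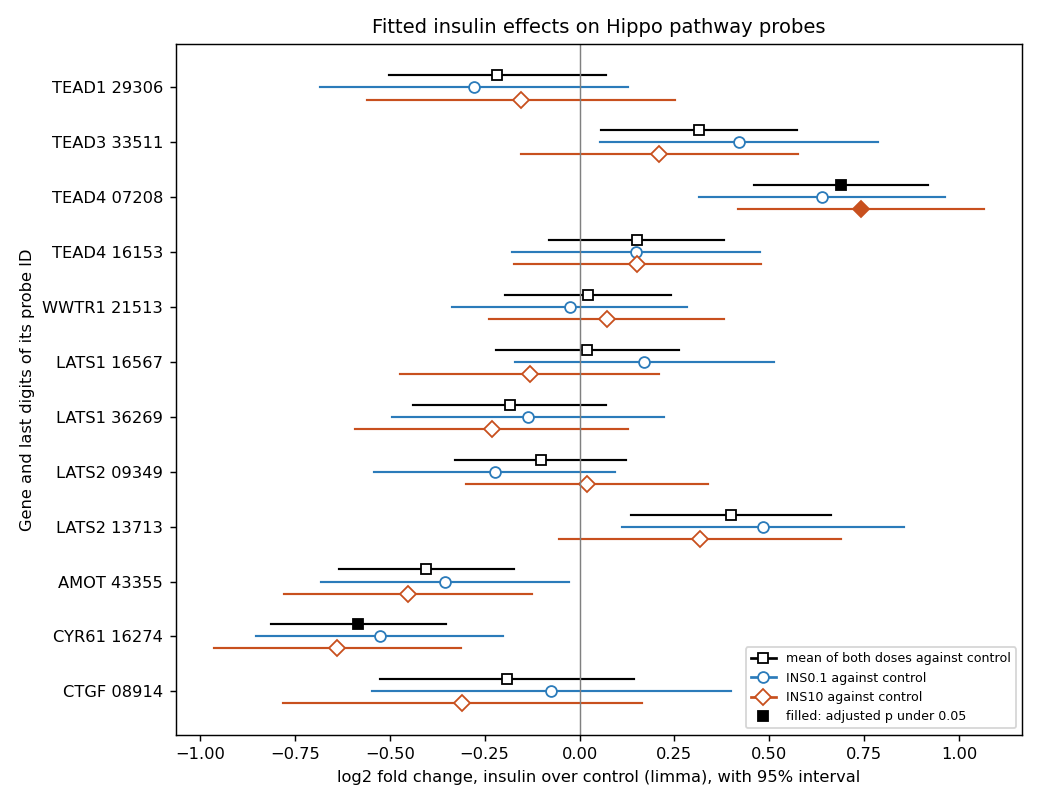
Fitted log2 fold change of insulin over control (x axis) with its 95% interval for the 12 tested member probes (y axis), for the mean of both doses (black squares), INS0.1 (blue circles) and INS10 (orange diamonds). Filled symbols passed limma's test at an adjusted p under 0.05, namely TEAD4 probe EMBV3_07208 for the mean and INS10, and CYR61 for the mean.

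Other genes of the pathway were read from 5 lists, with each gene by its brightest tested probe and for the mean of both doses. AMOTL2 and PTPN14 were both in the list of junction, polarity and actin regulators and in that of YAP and TAZ targets. Of all 11718 named genes 2.32% passed, 249 (2.12%) higher and 23 (0.196%) lower, and their median was −0.0074. An unadjusted p under 0.05 was reached by 1384 of the 11718. Of 11 tested genes of the kinase cassette and its scaffolds, 1 rose, 0 fell and the median was −0.0038. The gene that rose was NF2, which encodes merlin, an upstream activator of LATS. NF2 ratios were −0.41, 0.49, 1.35 and 1.22 at INS0.1 and 1.16, 0.399, 0.81 and 1.02 at INS10. Only INS0.1 replicate 1 was below 0. The mean was 0.75 (SE 0.13, limma adjusted p = 0.00338, 1.69-fold higher), and at INS10 alone it was 0.85 (adjusted p = 0.0503). That value lay close to the threshold and passed in 9 of 19 alternatives, with an adjusted p of up to 0.752 in the others. Those that passed included the fit with replicate block and per-dose dye effects together (0.0305), the high-dose arrays alone (0.00691) and the fit without INS0.1 replicate 1 (0.0144). The INS10 value passed in no fit that left out an INS10 array. At INS0.1 alone the NF2 mean was 0.66 (adjusted p = 0.208), and 0.95 without INS0.1 replicate 1 (0.0189). Named after their values were seen, the upstream kinase gene STK3 and the LATS cofactor gene MOBKL1A had means of −0.296 and −0.32 with adjusted p of 0.276 and 0.258.

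Of 16 junction, polarity and actin regulators none passed limma's test, 3 had an unadjusted p under 0.05 and the median was −0.046. The smallest p belonged to CRB3, a Crumbs polarity protein gene, at 0.44 (SE 0.11, limma adjusted p = 0.0501). Its ratio was above 0 on all arrays but INS0.1 replicate 1. It passed in 4 of 18 alternatives, which were those without that array (0.52, adjusted p = 0.017), without background correction (0.0433), among probes detected in all readings (0.0317) and with a robust variance trend (0.0377). Its other probe stood at 0.0599 (adjusted p = 0.909). EZR, the gene of the membrane-actin linker ezrin, had 0.52 (SE 0.17, adjusted p = 0.168) with ratios from −0.33 to 2.05, and its other probe stood at −0.037. Without INS10 replicate 3 the EZR mean was 0.6998 (adjusted p = 0.0397). EZR passed in that 1 of 18 alternatives alone, and its adjusted p reached 0.539 in the others.

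Of 6 tested further TEAD family members and partners none passed limma's test and none had an unadjusted p under 0.05, with a median of −0.073. ARID1A, a subunit of SWI/SNF chromatin remodellers, was lowest at −0.12 (SE 0.12), and VGLL2, a TEAD cofactor gene, stood at −0.076 (SE 0.11). Of 15 further YAP and TAZ target genes none passed, 1 had an unadjusted p under 0.05 and the median was −0.043, with values from −0.32 to 0.18. That gene was MYOF, which encodes the membrane protein myoferlin, at −0.32 (SE 0.13, limma adjusted p = 0.374). The next smallest p belonged to F3, the tissue factor gene, at −0.23 (SE 0.14, adjusted p = 0.627). The range of this list did not reach the CYR61 value of −0.58.

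Of 6 embryo genes listed as regulated by TEAD4 or YAP1 in mouse, 2 rose, 0 fell, 3 had an unadjusted p under 0.05 and the median was 0.18. The 2 that rose were GATA2, a trophoblast transcription factor gene, at 0.57 (SE 0.12, limma adjusted p = 0.0116) and the inner cell mass gene SOX2 at 0.69 (SE 0.13, adjusted p = 0.0042), each higher on 8 of 8 arrays. The GATA2 call was lost without INS0.1 replicate 3 (adjusted p = 0.0587) or 4 (0.061) and without INS10 replicate 1 (0.0578) or 2 (0.0879). CDX2 (0.16, adjusted p = 0.688) and GATA3 (0.203, adjusted p = 0.577), trophectoderm targets of TEAD4 in mouse, did not pass. ELF5 (−0.27, adjusted p = 0.454) and EOMES (−0.16, adjusted p = 0.691), further trophoblast transcription factor genes, lay below 0 on average and did not pass either. These 4 genes are named after their values were seen.

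**Figure D4:**
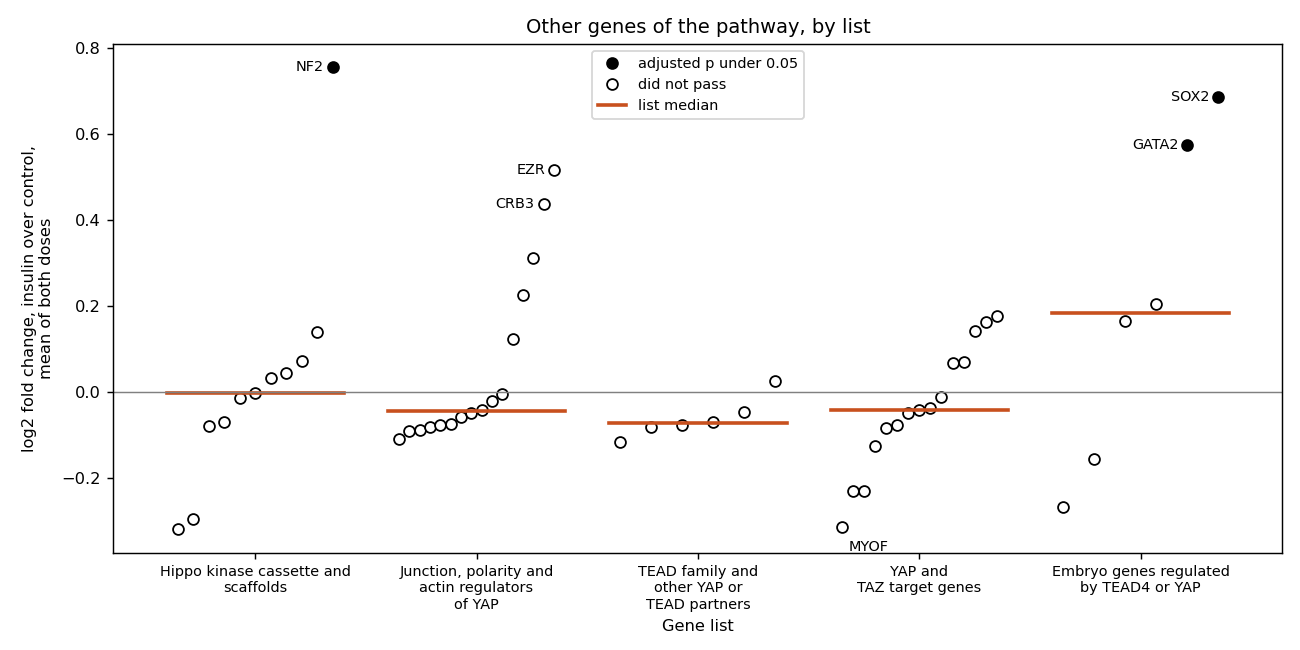
Log2 fold change of insulin over control for the mean of both doses (y axis) for each tested gene of 5 pathway lists (x axis); filled points passed limma's test, open points did not, and the orange line is the list median. NF2, SOX2 and GATA2 passed, and the 15 YAP and TAZ target genes lie between −0.32 and 0.18.

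Markers of other cells were measured beside these results, with calls for the mean of both doses unless a dose is named. The summed linear intensity of a list is weighted to its brightest probes. Control ranges cover 8 arrays and those of each dose 4. Of 4 tested sperm genes 1 fell, the protamine gene PRM1 (log2 −0.64, SE 0.12, limma adjusted p = 0.00439), and at INS10 alone 1 sperm gene passed as lower. The summed intensity of the 4 was 1020 to 1760 in control RNA, 953 to 1470 at INS0.1 and 705 to 1180 at INS10, with PRM2 and PRM3 below the detection filter. Of 5 cumulus and granulosa genes none passed, 2 had an unadjusted p under 0.05, and their sum was 696 to 1160 in control RNA, 763 to 1270 at INS0.1 and 1070 to 1280 at INS10, with LHCGR, TNFAIP6 and AMH below the filter. Of 11 trophectoderm genes GATA2 alone passed, and their sum was 131000 to 175000 in control RNA, 159000 to 186000 at INS0.1 and 145000 to 189000 at INS10. Of 6 inner cell mass genes SOX2 alone passed, the median was 0.066, and the others ran from −0.32 for KLF4 (adjusted p = 0.231) to 0.28 for NANOG (0.516), with POU5F1 at 0.015 (0.986), genes named after their values were seen. Their sum was 17400 to 23500 in control RNA, 16200 to 23300 at INS0.1 and 18700 to 29000 at INS10. Of 5 hypoblast and 3 oocyte genes limma called 0, with 0 at an unadjusted p under 0.05. The hypoblast sum was 66000 to 75900 in control RNA, 55400 to 77300 at INS0.1 and 55200 to 76800 at INS10, and the oocyte sum was 619 to 888, 619 to 753 and 695 to 814. The part of these cells in the TEAD4 and CYR61 results was not tested.

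The named genes with ratios most like those of TEAD4 over the 8 arrays, among 11675 compared, were GNPTG (Pearson r = 0.994), MRM1 (0.95) and MTCH1 (0.94). Those most like CYR61 were TRIM52 (0.98), CCNG1 (0.97) and HPGD (0.97). Of these 6 genes GNPTG alone passed limma's test (log2 0.58, adjusted p = 0.0226), and r takes no account of the mean. The arrays share dye orientation and replicate numbers, and the highest of so many correlations is high by selection.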

How the data were processed

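The deposited scanner tables hold, per the file headers, unnormalised median intensities for every spot in Cy3 and Cy5, its local background and a mark for ignored spots. Per the labels' protocols, RNA was amplified in a pair of rounds and labelled at guanine, which can alter ratios. The authors' deposited table of log2 ratios, whose steps and scaling between arrays are not given in the sources used here, correlated at 0.993 to 0.998 with insulin over control log2 ratios taken from the scanner values (column medians −0.022 to 0.00997) and served as an alternative.

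Intensities were corrected with normexp (offset 50) and loess-normalised within arrays in limma 3.58.1 (R 4.3.3), with control spots (1418) and ignored probe spots (139) at weight 0 and ignored values left out. Levels used Aquantile normalisation between arrays. Of 43794 probes, 29384 passed detection, and 21790 had 1 symbol and 22004 none. Precision is limited by the number of arrays. One model over all 8 arrays had an effect for each dose and a shared dye effect, with Benjamini-Hochberg adjustment over all tested probes. The tests were tried on simulated data. Deviations from the dose means of arrays with the same replicate number correlated at 0.22 to 0.31, against −0.22 to 0.096 for other numbers, and differences within a dye orientation at 0.26 and 0.22. The number was therefore used as a random block in an alternative (correlation 0.21), which also had a separate dye effect for each dose. Members and lists were chosen with earlier results of these data known, and the differences between probes were added after the values were seen. Named were all member probes, the called genes of each list or its 2 smallest p-values, and the 3 genes most like TEAD4 and CYR61.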

Additional observations from a re-analysis of the deposited data

Results flagged for a closer look

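Among 42 sets of 4 arrays (12 member probes and 9 further named genes, at each dose), 3 had 1 array far from the others by Dixon's criterion, and chance alone gives about 1 in 20. The ratio of LATS1 (EMBV3_16567) on INS0.1 replicate 1 was 0.59, against 0.0029 to 0.051 on the other low-dose arrays, and this probe was above the detection level in none of those readings. The ratio of LATS2 (EMBV3_09349) on INS0.1 replicate 1 was 0.054, against −0.33 to −0.30 on the others. MYOF on INS10 replicate 2 was −1.06, against −0.052 to 0.11 on the other high-dose arrays, and its ratio on INS0.1 replicate 2 was −1.14.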

How the results depend on the processing

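Over both doses 2 member probes passed in every alternative except without INS0.1 replicate 1, where LATS2 (EMBV3_13713) made 3, and the count ran from 2 to 3 over arrays left out in turn. Among probes detected in all readings the 2 were CYR61 and AMOT, since the TEAD4 probes were not in that set. At INS10 the count of 1 became 0 without the dye term, with a normexp offset of 16, with median centring and among probes detected in all readings. It became 2 without background correction, in the fit that took replicate number as a block with dye effects per dose, and with the high-dose arrays fitted alone. It ran from 0 to 1 over arrays left out. At INS0.1 the count of 0 became 1 without INS0.1 replicate 1, with a range of 0 to 1. For INS10 against INS0.1 it was 0 throughout. The replicate block, fitted only together with dye effects per dose, changed no other call of a member probe. The differences of TEAD4 from TEAD1 and between the TEAD4 probes went from p = 0.00781 and 0.0156 to 0.125 in an exact permutation test over replicate numbers, chosen after seeing the data. Over the whole table the count ran from 262 to 605 around 484 for both doses, from 0 to 218 around 32 at INS0.1 (64 with the replicate block and dye effects per dose together) and from 0 to 297 around 128 at INS10. With a normexp offset of 16 the share of higher calls at INS0.1 was 50% of 2, against 96.9% of 32. No called member changed sign, while 37 of 864 values of member probes did so without a call. The causes of these changes were not tested. Low signal over background limits the dim probes of TEAD4 and LATS1, detected in 7 and 4 of 16 readings.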
